A study of Mus musculus with 2 samples.

Results

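Mitochondrial fatty acid oxidation and ketogenesis were described through 32 genes that carry fatty acids into liver mitochondria, shorten them, turn the product into ketone bodies or control these steps. The genes were listed by name, and a probe set counted for a gene when the annotation of the array named that gene alone. Of the 32 genes, 30 had such a probe set, out of 18193 genes named in this way on the array. Acsl1 and Ucp2 had none and were not analysed here. All 30 entered the comparison, and they were read by 56 probe sets, of which 50 were at or above the array median in at least 1 pool and 6 were dim in both.

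The IRI pool came from livers of male C57BL/6 mice, wild type and 8 weeks old, taken 24 hours after warm ischaemia of both kidneys for 30 minutes and reperfusion (ischaemia-reperfusion injury, IRI). The sham pool came from livers of male C57BL/6 mice of the same age and genotype taken 24 hours after a sham operation. For each pool, 100 mg of frozen liver from 3 mice was combined, and each pool was hybridised to 1 Affymetrix array. With 1 array a group there was no spread between mice, so no test was made, no p-value is given and all differences describe these 2 pools. In whole liver, fewer cells of a type and less RNA per cell cannot be told apart.

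In liver, fatty acids are bound, activated to acyl-CoA and passed through the inner mitochondrial membrane as carnitine esters. Each turn of beta-oxidation then uses an acyl-CoA dehydrogenase, a hydratase, a second dehydrogenase and a thiolase, and the electrons of the first step pass through the electron transfer flavoprotein. Acetyl-CoA made in this way is turned into acetoacetate and 3-hydroxybutyrate, the ketone bodies that other organs burn in fasting. The nuclear receptor PPAR-alpha, encoded by Ppara, is the main activator of these genes in fasted liver.

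The list did not move as 1 block. Transcripts for most enzymes of the oxidation spiral and for both measured ketone body enzymes had lower signals in the IRI pool, by up to 3.55-fold for Hadh. By their brightest probe sets, transcripts for uptake and the carnitine shuttle were similar or somewhat higher. Other probe sets of Cpt1a, Cpt2 and Fabp1 lay further to the lower side. Acot2 and Acot9 among 3 acyl-CoA thioesterases were over 2-fold higher, and Angptl4 stood at the 2-fold mark. On the scale of log2(signal + 16), used for all differences and folds, the 30 genes had a median difference of -0.35 (IRI minus sham), against -0.01 over all 13117 genes measured. At 2-fold, 3 of 30 genes (10.0%) were higher and 4 (13.3%) lower, beside 8.71% and 9.59% of all genes, so these shares lay near the background. At 1.5-fold, 7 genes (23.3%) were higher and 11 (36.7%) lower, beside 18.7% and 19.3% of all genes. Both arrays had been scaled to the same trimmed mean, but the bacterial RNA added at hybridisation gave brighter signals on the IRI array in all 18 of its probe sets (median 0.28 in log2). When differences were taken relative to this added RNA, each dropped by that amount. Then 2 of the 30 genes stood past 2-fold on the higher side and 10 on the lower side, beside 5.76% and 15.4% of all genes.

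**Figure D1:**
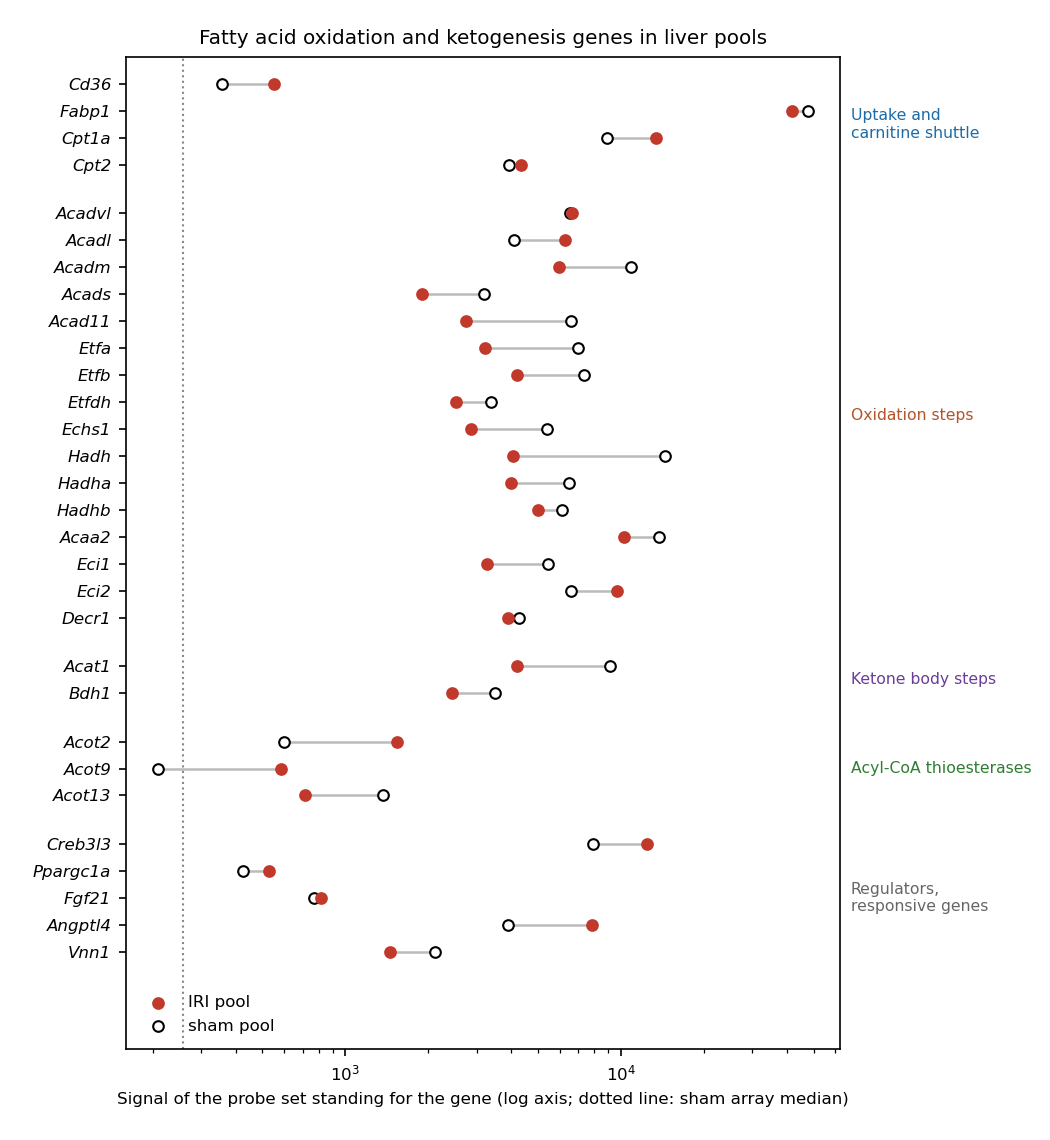
Signal of each measured gene in the IRI pool (filled red) and the sham pool (open) on a log axis, 1 array each, grouped by step, with the sham array median of 257.0 as a dotted line. Most oxidation and both ketone genes have the red point to the left, whereas Cpt1a, Acadl, Eci2, Creb3l3, Angptl4, Acot2 and Acot9, among others, have it to the right.

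Among the genes of uptake and transport, 4 of 5 were measured. Their median log2 difference was 0.36, and none differed by 2-fold. Cd36, the fatty acid translocase at the cell surface, had a signal of 553.0 in the IRI pool and 358.3 in the sham pool, 1.52-fold higher. Its other probe set past the filter gave 1.17-fold higher, so the size is uncertain. Fabp1, the abundant fatty acid binding protein of hepatocytes, had signals of 41889.9 in the IRI pool and 47536.6 in the sham pool, a log2 difference of -0.18. Fabp1 lay near the top of the scale, where scaling matters, and quantile normalization moved its difference to -0.68. A second Fabp1 probe set also gave a lower value, -0.63.

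Cpt1a, the carnitine palmitoyltransferase of the outer membrane and the rate-setting step of entry, had a signal of 13359.7 in the IRI pool, against 8894.7 in the sham pool. The brightest probe set was thus higher by 0.59 in log2, a little over 1.5-fold. The other probe sets, which have lower signals and a suffix that marks possible cross-hybridisation, gave 0.07 and -0.26. Cpt2, its partner on the inner membrane, had signals of 4343.7 in the IRI pool and 3937.5 in the sham pool (log2 difference 0.14). The sign for Cpt2 turned to -0.14 with the hybridisation controls as reference and to -0.05 by the mean of its probe sets. The carnitine-acylcarnitine carrier Slc25a20, which links both transferases, had a difference of -0.16. By their brightest probe sets, these entry genes thus lay on either side of no difference, none of them past 2-fold. Outside the list, the carnitine transporter Slc22a5 was 1.92-fold higher, with a log2 difference of 1.14 by its second probe set. The fatty acid transporter Slc27a2 was 1.55-fold lower. Synthetases that activate fatty acids and passed 2-fold on the lower side are given below.

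The promoters of these genes are shown because PPAR-alpha and related receptors are known to bind repeats of the hexamer AGGTCA. RefSeq promoters (GRCm38.p6) were given for 26 of the 32 genes, and the 250 bases before the start site were searched on both strands. Decr1, Acaa2, Acat1, Acot13, Angptl4 and Vnn1 had no entry. The hexamer was found before 7 of 26 genes (26.9%), beside 15.8% of all 27025 genes with a promoter in the table. These 7 were Cpt1a, Cd36, Creb3l3 and Acadvl, whose log2 differences were above 0, and Acadm, Echs1 and Fabp1, whose differences were below 0. For Acadvl the difference was 0.02, and its sign changed with the scaling. A direct repeat of 2 hexamers AGGNCA with 1 base between them, which can contain the first motif, was found before Fabp1 alone among the members, and before 0.400% of all genes with a promoter. A match is a run of letters and not a site shown to be bound. The stretches for Fabp1 (chr6:71199629-71199878, plus strand), Cpt1a (chr19:3323051-3323300, plus strand) and Echs1 (chr7:140116422-140116671, minus strand) read 5′ to 3′ in the direction of the gene, with the direct repeat of Fabp1 and the hexamers of Cpt1a and Echs1 in capitals on whichever strand they match.
Fabp1: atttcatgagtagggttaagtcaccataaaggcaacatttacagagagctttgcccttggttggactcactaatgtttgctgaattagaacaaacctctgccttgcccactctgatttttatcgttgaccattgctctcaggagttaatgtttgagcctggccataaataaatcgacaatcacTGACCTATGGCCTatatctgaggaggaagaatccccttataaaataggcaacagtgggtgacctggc
Cpt1a: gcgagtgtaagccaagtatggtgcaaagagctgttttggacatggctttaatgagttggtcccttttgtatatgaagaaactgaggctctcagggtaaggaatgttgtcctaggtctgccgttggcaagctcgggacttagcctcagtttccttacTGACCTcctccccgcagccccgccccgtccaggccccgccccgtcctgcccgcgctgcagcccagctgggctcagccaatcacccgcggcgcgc
Echs1: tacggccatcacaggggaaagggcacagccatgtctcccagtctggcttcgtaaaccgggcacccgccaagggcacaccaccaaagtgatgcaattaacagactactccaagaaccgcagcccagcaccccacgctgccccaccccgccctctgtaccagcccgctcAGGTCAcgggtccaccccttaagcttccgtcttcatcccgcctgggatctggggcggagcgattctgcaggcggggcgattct
The repeat of Fabp1 begins 67 bases before its start site, and the hexamers of Cpt1a and Echs1 begin 94 and 83 bases before theirs. Cpt1a was higher in the IRI pool by 0.59 in log2 by its brightest probe set (0.07 and -0.26 by the others). Echs1 was 1.89-fold lower.

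The oxidation steps were the largest group, with all 16 genes measured. Their median log2 difference was -0.71, and 13 of 16 lay below 0, beside 6647 of all 13117 genes. At 2-fold, 3 (Hadh, Acad11 and Etfa, 18.8%) were lower and none higher, beside 9.59% and 8.71% of all genes. At 1.5-fold, 9 of 16 (56.3%) were lower and 1 was higher, beside the 19.3% and 18.7% of all genes. Of the 16 measured genes of the tricarboxylic acid cycle, which work in the same compartment, 12 lay below 0, and their median was -0.48. Of these 16, 5 (31.3%) were lower by 1.5-fold or more and none by 2-fold. Among the measured genes of peroxisomal oxidation, 15 of 19 lay below 0.

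The acyl-CoA dehydrogenases catalyse the first reaction of each turn and divide the work by chain length. Acadvl, for very long chains, had signals of 6633 in the IRI pool and 6529 in the sham pool, a log2 difference of 0.02 that became -0.26 with the hybridisation controls as reference and -0.08 after removal of a trend on signal. Acadl, for long chains, had 6253 in the IRI pool and 4093 in the sham pool, 1.53-fold higher (log2 difference 0.61). With the hybridisation controls as reference its log2 difference was 0.32. A second Acadl probe set was dim in both pools (177.3 in the IRI pool, 180.6 in the sham pool). By the deposited scaling and the brightest probe sets, neither Acadvl nor Acadl was lower in the IRI pool.

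The other dehydrogenases were lower. Acadm, the medium-chain enzyme, had a signal of 5965.6 in the IRI pool, against 10857.8 in the sham pool (1.82-fold lower). Acads, the short-chain enzyme, had signals of 1899.7 in the IRI pool and 3180.2 in the sham pool (1.67-fold lower). Acad11, a further member of the dehydrogenase family, had 2750.9 in the IRI pool and 6610.0 in the sham pool, 2.39-fold lower, and both of its probe sets were lower (log2 differences -1.26 and -1.40).

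The electron transfer flavoprotein collects electrons from these dehydrogenases, and its subunits Etfa and Etfb were both lower. Etfa had a signal of 3199.5 in the IRI pool and 7001.3 in the sham pool, 2.18-fold lower. Etfb had 4204 in the IRI pool and 7368 in the sham pool, 1.75-fold lower. Etfdh, the membrane enzyme that hands the electrons on to ubiquinone, had 2518 in the IRI pool and 3389 in the sham pool, 1.34-fold lower. A second Etfdh probe set was dim in both pools, with signals of 171.5 in the IRI pool and 16.3 in the sham pool, and no fold is given for it.

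Hydration, second dehydrogenation and thiolysis follow, and all 5 genes of these reactions had differences below 0. Hadh, the short-chain 3-hydroxyacyl-CoA dehydrogenase, had the largest difference of all 30 genes by the brightest probe sets. Its signal was 4051 in the IRI pool and 14403.5 in the sham pool, 3.55-fold lower, by a probe set whose suffix (_x_at) marks possible cross-hybridisation. The probe set without that suffix gave 3957 in the IRI pool and 9832 in the sham pool, 2.48-fold lower, and the third gave 2.34-fold lower. All 3 probe sets of Hadh were thus past 2-fold. Echs1, the short-chain enoyl-CoA hydratase, had 2848 in the IRI pool and 5404 in the sham pool, 1.89-fold lower.

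Hadha and Hadhb encode the alpha and beta subunits of the trifunctional protein, which handles long chains. Hadha had a signal of 4007.7 in the IRI pool and 6479.8 in the sham pool, 1.61-fold lower. Hadhb had 5012 in the IRI pool and 6103 in the sham pool, 1.22-fold lower, but its 3 probe sets ran from -1.08 to 0.03 in log2 difference. Acaa2, the mitochondrial 3-ketoacyl-CoA thiolase, had 10256 in the IRI pool and 13756 in the sham pool, 1.34-fold lower, and its 3 probe sets ran from -0.49 to 0.16. The directions of Hadhb and Acaa2 therefore depended on the probe set.

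Double bonds need auxiliary enzymes, and these 3 genes differed from one another. Eci1, a mitochondrial enoyl-CoA isomerase, had signals of 3259 in the IRI pool and 5434 in the sham pool, 1.66-fold lower. Eci2, a related isomerase also found in peroxisomes, had 9715 in the IRI pool and 6605 in the sham pool, 1.47-fold higher. Decr1, the 2,4-dienoyl-CoA reductase, had 3897 in the IRI pool and 4257 in the sham pool, a log2 difference of -0.13, whereas its second probe set gave -1.41. Eci1 and Eci2 thus stood on opposite sides, each by 1 probe set.

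**Figure D2:**
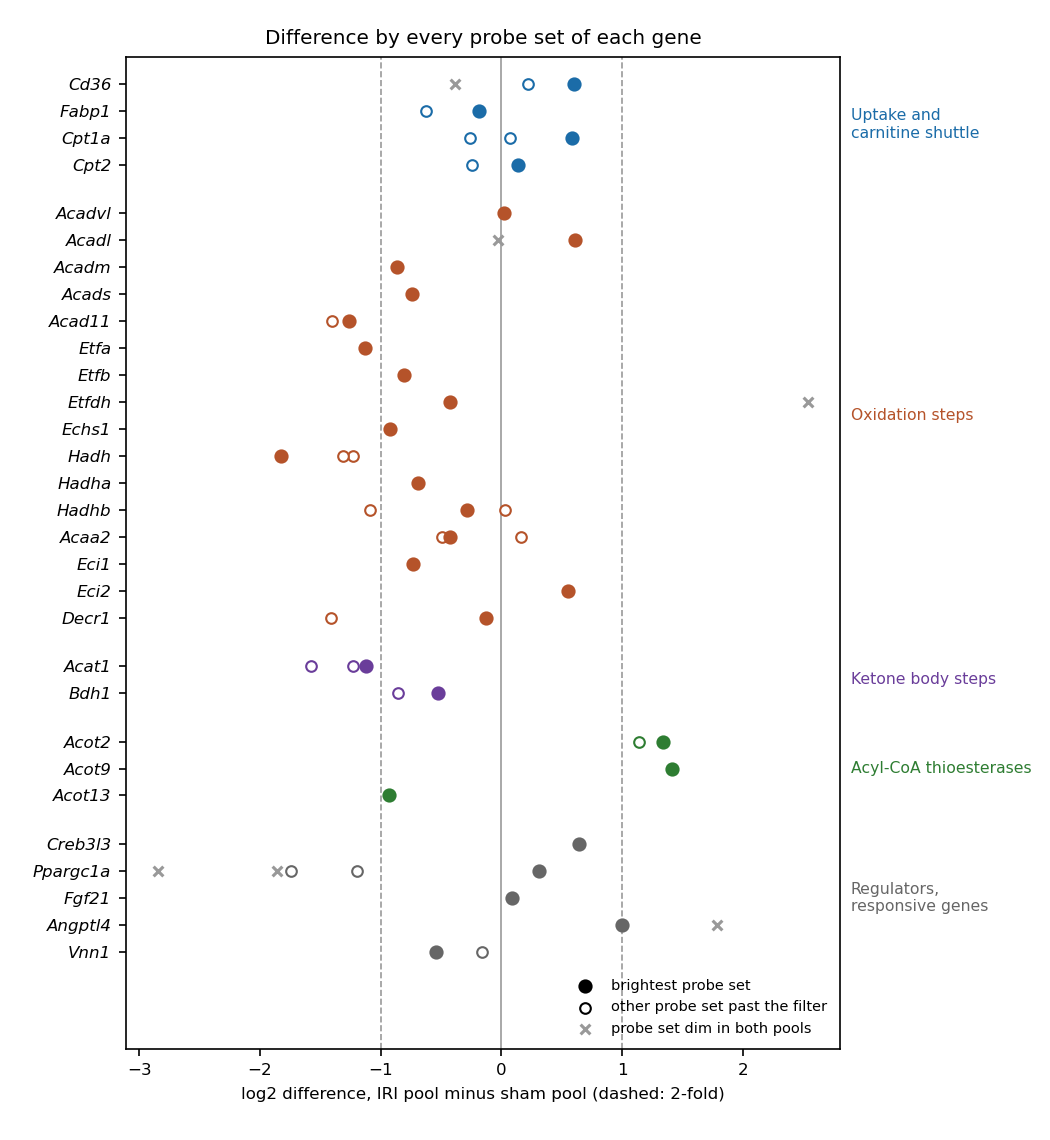
Log2 difference (IRI minus sham) of every probe set of each measured gene, grouped by step, with filled points for the brightest probe set, open points for others past the filter and crosses for probe sets dim in both pools. All 3 probe sets of Hadh and of Acat1 lie beyond the lower 2-fold line, while the probe sets of Ppargc1a run from -2.84 to 0.31.

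Both measured ketone body enzymes were lower. Acat1, the mitochondrial acetoacetyl-CoA thiolase, had a signal of 4193 in the IRI pool and 9137 in the sham pool, 2.17-fold lower. Its other probe sets gave 2.34-fold and 2.99-fold lower, so all 3 lay past 2-fold in the same direction. Bdh1, which interconverts acetoacetate and 3-hydroxybutyrate, had 2432 in the IRI pool and 3505 in the sham pool, 1.44-fold lower, and 1.81-fold lower by its second probe set. The synthase and lyase that stand between Acat1 and Bdh1 were not analysed here, so the middle of ketogenesis is not covered. Slc16a1, a monocarboxylate transporter that can carry ketone bodies and lactate, had 4183 in the IRI pool and 744.3 in the sham pool, 5.52-fold higher. Slc16a7, a related transporter, had 54.2 in the IRI pool, which is under the array median, and 729.9 in the sham pool, so it was at least 2.76-fold lower against that median.

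Acyl-CoA thioesterases release free fatty acid and coenzyme A from acyl-CoA. Acot2, a mitochondrial enzyme of this family, had a signal of 1542 in the IRI pool and 600.6 in the sham pool, 2.53-fold higher. Its second probe set had 373.2 in the IRI pool and 160.2 in the sham pool, where it was dim, which gives at least 1.43-fold higher. Acot9, also mitochondrial, had 585.9 in the IRI pool and 210.0 in the sham pool. The sham signal of Acot9 was under the array median of 257.0, so its fold is a bound of at least 2.20-fold higher. Acot13 had 713.2 in the IRI pool and 1373 in the sham pool, 1.90-fold lower. Of the 3 thioesterases, Acot2 and Acot9 were therefore higher and Acot13 lower.

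Of the 6 regulators and responsive genes, 5 were measured. Creb3l3, a liver transcription factor that works with PPAR-alpha in fasting, had a signal of 12416.9 in the IRI pool and 7930.3 in the sham pool, 1.56-fold higher. Angptl4, a secreted inhibitor of lipoprotein lipase and a known PPAR target, had 7828.5 in the IRI pool and 3904.6 in the sham pool, a fold just at the threshold, by a probe set of suffix _s_at. Its log2 difference dropped under the threshold in 4 alternatives, to 0.99 with a pseudocount of 64, 0.98 by quantile normalization, 0.91 after removal of a trend on signal and 0.72 relative to the added bacterial RNA. Adipocyte markers, whose cells also make Angptl4, summed to 7157 in the IRI pool and 1523.9 in the sham pool over the 5 with a probe set. Fabp4, also expressed by macrophages, made up most of the IRI sum (5683.9 in the IRI pool, 240.2 in the sham pool). By its brightest probe set Fabp4 was at least 20.9-fold higher. Its 4 probe sets ran from -0.06 to 4.48 in log2 difference, 3 of them higher and 1 lower. Retn, the other marker past the filter, had 1147.2 in the IRI pool and 1025.1 in the sham pool, 1.12-fold higher. Adipoq, Lep and Cidea were dim in both pools. The part of adipocytes in the difference of Angptl4 was not tested. Fgf21, a hormone that liver releases in fasting, had 818.0 in the IRI pool and 768.9 in the sham pool, a log2 difference of 0.09, and of -0.20 with the hybridisation controls as reference. Vnn1, a pantetheinase and another PPAR-alpha target, had 1447 in the IRI pool and 2118 in the sham pool, 1.46-fold lower.

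Ppargc1a encodes the coactivator PGC-1 alpha, which raises oxidation genes in fasting, and its probe sets disagreed. The brightest had signals of 529.7 in the IRI pool and 424.8 in the sham pool, 1.24-fold higher. The other probe sets past the filter had 189.4 and 105.2 in the IRI pool, both under the array median, against 453.8 and 388.7 in the sham pool. Both of these were lower in the IRI pool, and the mean of the 3 was -0.88. No direction can be given for Ppargc1a from these arrays.

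**Figure D3:**
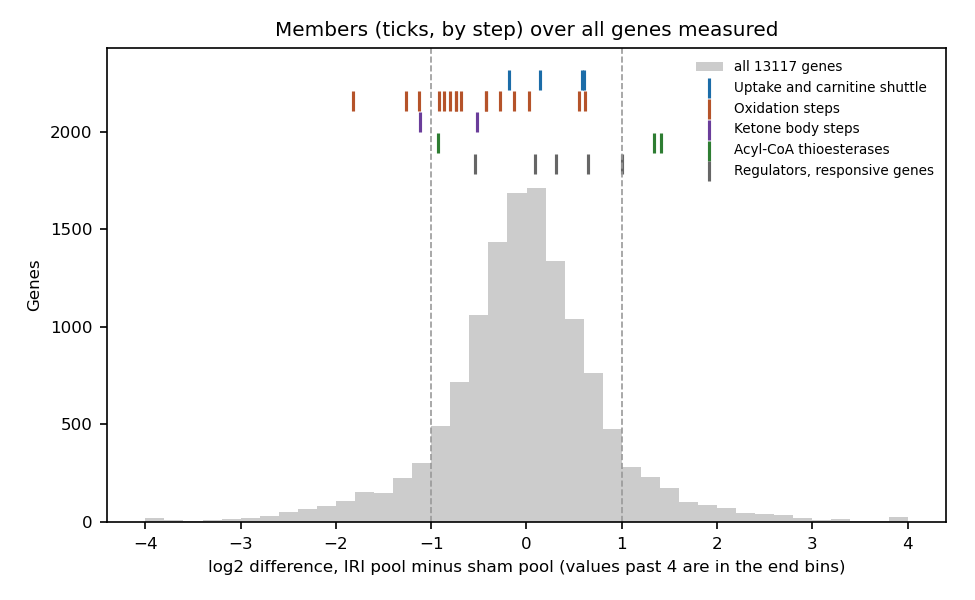
Histogram of the log2 difference (IRI minus sham) over all 13117 genes, with 1 tick for each of the 30 genes, coloured by step, and dashed lines at 2-fold. Of the 16 ticks of the oxidation steps, 13 lie left of 0 and 3 lie beyond the lower 2-fold line. Over all 13117 genes, 6647 lie left of 0 and 1258 (9.59%) lie beyond that line.

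A wider set of 67 genes of the pathway outside the list had 58 measured. Of these, 4 (6.90%) passed 2-fold on the higher side and 13 (22.4%) on the lower side, beside the 8.71% and 9.59% of all genes, with a median of -0.26. Ppara itself, the receptor gene, had signals of 3139.8 in the IRI pool and 3892.6 in the sham pool, a log2 difference of -0.31. Higher beside Slc16a1 were Pdk4, which restrains pyruvate dehydrogenase (at least 49.2-fold), and the lipid droplet proteins Plin2 (6.52-fold) and Cidec (at least 15.8-fold). Fabp2, a second fatty acid binding protein, lay just short of 2-fold (log2 difference 0.99).

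On the lower side, 3 medium-chain acyl-CoA synthetases stood together. Acsm1 had signals of 2562.0 in the IRI pool and 6271.5 in the sham pool, 2.44-fold lower. Acsm3 had 85.2 in the IRI pool and 1392 in the sham pool, at least 5.21-fold lower. Acsm5 had 115.0 in the IRI pool and 1971 in the sham pool, at least 7.36-fold lower. Each of the 3 was read by 1 probe set. Acsl3, a long-chain synthetase, was at least 3.71-fold lower by its brightest probe set, of suffix _s_at, and lower by 1.5-fold or more by the other (log2 difference -0.87).

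Other lower genes were Sirt3, the mitochondrial deacetylase that acts on oxidation enzymes (3.55-fold), and Ivd, the isovaleryl-CoA dehydrogenase, which also feeds the electron transfer flavoprotein (2.67-fold). Acad12 was at least 2.16-fold lower. Mcee, an enzyme of odd-chain and propionyl-CoA breakdown, was 2.01-fold lower by 1 probe set, just past the threshold. Among regulators and PPAR-alpha targets, Lpin1 was 6.36-fold lower, Cyp4a14 4.08-fold, Nr1i3 3.04-fold and Acot1 at least 2.05-fold. Known PPAR-alpha targets thus stood on both sides, with Pdk4, Plin2 and Angptl4 higher and Cyp4a14 and Acot1 lower.

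**Figure D4:**
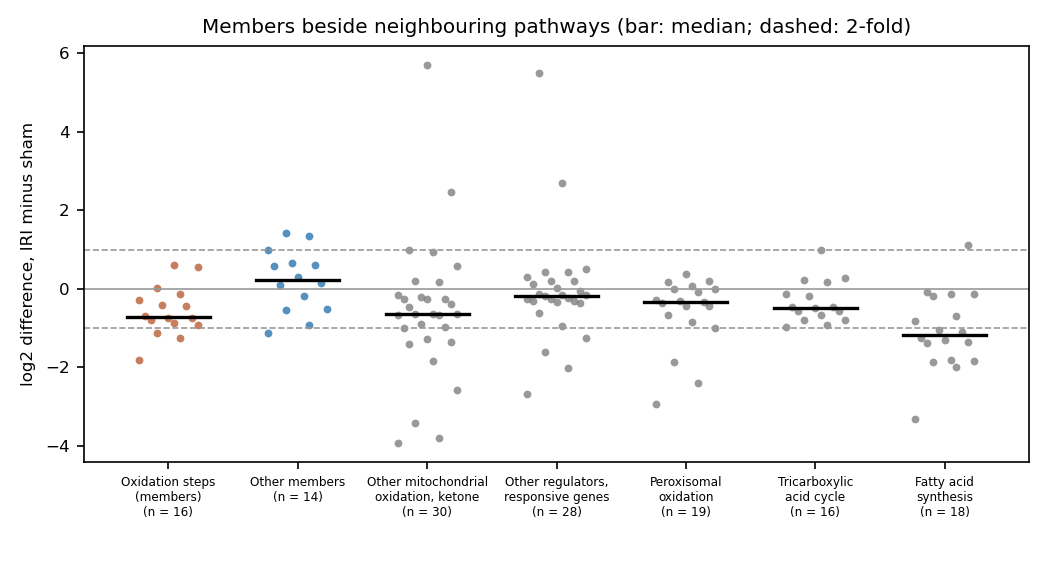
Log2 difference (IRI minus sham) of each measured gene, with the oxidation steps and the other listed genes at the left and neighbouring pathways to their right, bars at the medians and dashed lines at 2-fold. The median is -0.71 for the oxidation steps, -0.48 for the tricarboxylic acid cycle, -0.33 for peroxisomal oxidation and -1.18 for fatty acid synthesis.

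The oxidation steps were set beside pathways that share their substrates. Of 19 measured genes of peroxisomal oxidation, 4 (21.1%) passed 2-fold on the lower side and none on the higher, and the median was -0.33. Of 18 measured genes of fatty acid synthesis, 11 (61.1%) were lower by 2-fold or more and 1 was higher, and the median was -1.18. Of the 16 oxidation genes, 3 (18.8%) passed 2-fold on the lower side and none on the higher, and the median was -0.71. Over all genes, 8.71% passed 2-fold on the higher side and 9.59% on the lower side. No test of these differences between lists was possible with 1 array a group.

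All 8 hepatocyte markers with a probe set were past the array median in both pools, with summed signals of 277150 in the IRI pool and 218912 in the sham pool. Of these, 5 lay above 0, among them Alb (log2 difference 0.73), Tat (0.61), Apoa1 (0.49) and Ttr (0.41). The 3 below 0 were Hnf4a (-0.06), Apob (-0.22) and Cps1 (-1.12), and Cps1 alone was 2-fold lower. All 6 measured pancreatic acinar markers were past 2-fold on the higher side, with summed signals of 10558.5 in the IRI pool and 3120.0 in the sham pool. Of 6 measured neutrophil markers, S100a8 (at least 5.21-fold) and S100a9 (at least 2.95-fold), both dim in the sham pool, were past 2-fold on the higher side. Mpo (log2 difference 0.07) and Ngp (0.37) lay above 0, Elane (-0.44) and Ltf (-0.39) below 0, and Camp was dim in both pools. The 7 with a probe set summed to 6122 in the IRI pool and 4365 in the sham pool. Of 8 macrophage and Kupffer cell markers, 1 was 2-fold lower and none higher (7496 in the IRI pool, 10692 in the sham pool). Among 7 measured endothelial markers 1 was higher and 1 lower (7552 in the IRI pool, 6760.3 in the sham pool), and 5 of 8 striated muscle markers were dim in both pools, with 1 of the other 3 higher and 1 lower (1029 in the IRI pool, 1478 in the sham pool). None of 5 measured kidney tubule markers passed 2-fold (3291 in the IRI pool, 3487 in the sham pool). The part of other cells in the differences of Cd36, Acot9 and the other genes was not tested.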

How the data were processed

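Liver RNA of 2 pools was compared, 1 array each, grouped by the treatment label. Per the labels' protocols, RNA was extracted with Trizol and labelled cRNA was made from 6 ug by the Affymetrix method. The deposited values are probe set intensity values on a linear scale, which the authors had scaled to a common level: the mean without 2% at each end was 500.0 on both arrays. The software that summarised the probes was not given in the sources used here.

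Symbols came from the platform's annotation and were updated through the Entrez ID (34741 of 34945 probe sets with 1 gene). Differences are IRI minus sham in log2(signal + 16), which shrinks those of dim probe sets. A probe set was kept when at least 1 signal reached its array's median (254.1 IRI, 257.0 sham), and the brightest kept probe set stood for the gene. A signal under that median was called dim, and a bound then divides the brighter signal by the other array's median, after adding 16 to both. Probe sets of suffix _x_at or _s_at can cross-hybridise. All listed genes are named, and wider genes when 2-fold different, with some other wider genes given as context. The members, lists and settings were chosen with earlier results of these data known. The steps were tested on simulated data, with Python 3.11.15, pandas 2.3.3 and statsmodels 0.14.6. The number of arrays limits the precision. Alternatives were other scalings, pseudocounts, filters, probe set rules and thresholds.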

Additional observations from a re-analysis of the deposited data

How the results depend on the processing

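No paired analysis was possible because each group has 1 pooled array. The log2 differences of probe sets within a gene spread with an SD of 0.72 over all genes and 0.50 over the listed genes, so single differences under about 2-fold are uncertain. A single value was taken as unmoved when it shifted by less than 0.72, and a median by less than that divided by the square root of its number of genes. This limit describes disagreement between probe sets, not between mice or arrays. It treats genes as independent and exceeds many of the differences themselves, so it is a loose one. Of 28 genes outside the ketone steps, 22 kept their sign in each alternative that gave them a value, and Cpt2, Acadvl, Hadhb, Acaa2, Fgf21 and Ppargc1a did not. The count of 22 was partly fixed in advance. Another pseudocount cannot turn the sign of a probe set. For 16 of the 30 measured genes 1 probe set passed the filter, so rules for choosing among probe sets could not turn theirs. The stricter filters gave no value for Acot9, the 75th percentile filter none for Cd36 and Ppargc1a, and Angptl4 had none without probe sets of suffix _x_at or _s_at. Ppargc1a alone moved by more than the SD, to -0.88 by the mean of its probe sets. Decr1 went from -0.13 to -0.77 by the same rule and still counted as unmoved. So did Cpt1a, which went from 0.59 to 0.07 when the probe set of smallest difference stood for it. The medians of transport (0.04 to 0.37) and oxidation (-0.998 to -0.70), Acat1 and Bdh1 kept their signs.

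With the hybridisation controls as reference, 2 members were 2-fold higher and 10 lower, beside 5.76% and 15.4% of all genes. In that setting the median of all members was -0.64 and that of the oxidation steps -0.998, beside -0.30 over all genes. The median of all members was -0.49 by quantile normalization and -0.14 when the probe set of smallest difference stood for a gene. When both signals had to reach the array median, 2 wider genes were 2-fold higher and 7 lower, beside 5.14% and 6.17% of all genes. At 1.5-fold, 7 members were higher and 11 lower, and 6 wider genes were higher and 22 lower, beside 18.7% and 19.3% of all genes. At 3-fold, 0 members were higher and 1 (Hadh) lower, and 4 wider genes were higher and 8 lower, beside 3.60% and 4.49% of all genes. Raising dim signals to the array median, chosen after the data were seen, moved no count of members (3 higher, 4 lower), beside 5.50% and 6.59% of all genes. No count could move, because 1 member, Acot9, was dim in 1 pool and its bound was 2.20-fold.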

Other observations

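Acyl-CoA thioesterase genes that neighbour each other on mouse chromosome 12 differed in direction. Acot2 was higher in the IRI pool (log2 difference 1.34) and Acot1 lower (at least 2.05-fold). Acot3 (0.42), Acot4 (0.31) and Acot6 (0.50) were under 2-fold, and their differences lay above 0. Acot5, which lies between Acot3 and Acot6, was not analysed here. These genes are closely related in sequence, and how far their probe sets cross-hybridise was not tested.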
